A study of Homo sapiens and Mus musculus with 19 samples.

Results

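Chromatin-associated RNA (caRNA) of control mouse embryonic stem (mES) cells was described from 3 libraries labelled siControl, out of 19 libraries in the series, each holding counts for 54446 genes. The libraries were chosen by their label, with earlier results of these data known. The wider study asked how RNA 5-methylcytosine (m5C) on chromatin-bound transcripts is handled by the methyltransferase NSUN2 and the dioxygenase TET2, and the siControl libraries are the controls of its Nsun2 knockdown in mES cells. No contrast with a treated library was made here. Every value is a level, given as mean ± SD over the 3 libraries, and no test was run.

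All 3 samples were mES cells of the control genotype, transfected with a control short interfering RNA through a lipid reagent, and their tissue label reads embryos. The cells had been grown with serum, leukaemia inhibitory factor and the kinase inhibitors CHIR99021 and PD0325901, a medium that favours the naive state, and passaged on gelatin to remove feeder cells. Nuclei were spun through a sucrose cushion, extracted with urea and detergent, and the insoluble pellet was taken as the chromatin fraction. Ribosomal RNA was depleted before a stranded, randomly primed library was made. Nothing in the labels says whether the replicates were separate cultures. The study's figure legends describe its genome-wide data as drawn from 3 biological replicates. The SDs measure only the spread between these samples, part of which may be technical.

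RNA that stays with chromatin after such an extraction is of several kinds. Much of it is nascent transcript still held by RNA polymerase, with its introns in place, so long genes offer more sequence to be read than their mature messenger RNA would. Long non-coding RNAs that act in the nucleus, such as Malat1 in nuclear speckles and Neat1 in paraspeckles, form another part, and ribosomal precursors made in the nucleolus sediment in the same pellet. Mature messenger RNA, which is exported and translated, is left mostly in the cytoplasmic fraction.

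The libraries held 66832780, 62989044 and 65251185 counts in genes for replicates 1, 2 and 3. On average 72.8% ± 0.299 of the read records fell to a gene, 19.9% ± 0.348 to no annotated gene, 2.46% ± 0.0520 to more than 1 gene and 4.79% ± 0.0163 to several places in the genome. Between 36407 and 36464 genes had a count in each library, 23790 had at least 10 counts in every library and 13282 had none in any. The replicates lay close together: the common biological coefficient of variation was 6.86% over 23651 genes, and the median coefficient of variation (CV) fell from 28.2% for genes with a mean of 10 to 100 counts to 1.63% for genes with 10000 or more. Counting error alone would give a median of 18.5% in the first of those classes and 0.769% in the last, so a value below 100 counts is known only roughly.

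A small number of genes took a large part of the counts. Counts were scaled to a library total of 1000000 gene counts (CPM). On this scale the single highest gene, Gm26917, held 9.17% ± 0.333 of all gene counts, the 10 highest held 13.6% ± 0.404, the 100 highest 22.6% ± 0.343 and the 1000 highest 52.6% ± 0.132. Gm26917 (ENSMUSG00000097971.3, annotated as a long intergenic non-coding RNA) lies at chr17:39843013-39846341 on the plus strand of mm10 and had 6372734, 5728935 and 5796168 counts, the highest share being in replicate 1. Its neighbour Gm42418 (ENSMUSG00000098178.1, chr17:39846958-39848788, plus strand) came next, with 876837, 768571 and 756655 counts. On the CPM scale the pair stood at 91711 ± 3328 and 12306 ± 767, and no other gene reached the level of either. Opposite Gm42418, on the minus strand, the ribosomal RNA gene model CT010467.1 had 24622, 17911 and 18790 counts, while AY036118, which lies inside it on that strand, had 0 in every library.

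Both genes were aligned to the human ribosomal DNA repeat, since no mouse repeat was at hand, and stretches of Gm42418 and of 2 hairpin models are shown to let their likeness to the repeat be seen. In that repeat the 18S, 5.8S and 28S ribosomal RNAs follow each other in 1 transcript, and positions are given from the 5.8S gene RNA5-8SN2 on chromosome 21 of GRCh38. Bases 1 to 1248 of Gm42418 aligned at 97.3% identity, beginning 2343 bases before 5.8S, on the side of the 18S RNA, and a second stretch of bases 1767 to 1830 aligned at 87.9%. For Gm26917 only short stretches aligned, bases 14 to 164 at 76.7% and 360 to 398 at 87.5%, beginning 6127 and 5767 bases before 5.8S. Ranked sixth of all genes was Gm23935, a model of 57 bases annotated as a miRNA hairpin, with 213996, 201058 and 184804 counts. Its bases 1 to 56 aligned at 91.1% to a stretch that begins 5997 bases after the end of 5.8S, where the 28S RNA lies, and its relative Gm24187 aligned to the same place at 89.3%. Mir6236, the second most abundant gene annotated as a hairpin, aligned over bases 1 to 82 at 96.3%, beginning 3168 bases after 5.8S. The first 180 bases of Gm42418 (chr17:39846958-39847137, plus), the whole of Gm23935 (chr16:11144125-11144181, plus) and the whole of Gm24187 (chr13:9834469-9834525, minus) are given 5′ to 3′ from the GENCODE M21 transcripts on GRCm38, and capitals mark the letters that differ from the human repeat, 1, 5 and 6 of them in turn.
Gm42418: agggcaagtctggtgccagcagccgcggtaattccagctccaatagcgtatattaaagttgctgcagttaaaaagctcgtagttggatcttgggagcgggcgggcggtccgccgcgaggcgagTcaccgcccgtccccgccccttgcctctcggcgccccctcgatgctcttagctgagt
Gm23935: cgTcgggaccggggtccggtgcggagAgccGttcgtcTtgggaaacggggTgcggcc
Gm24187: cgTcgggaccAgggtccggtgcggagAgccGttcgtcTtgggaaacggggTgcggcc

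After Gm26917 and Gm42418 the most abundant genes were mostly nuclear and mitochondrial RNAs and very long protein-coding genes. Malat1 stood at 7711 ± 57.2 CPM, and the mitochondrial ribosomal RNAs mt-Rnr2 and mt-Rnr1 at 5840 ± 76.1 and 4147 ± 135 CPM. Of the 20 highest genes, 14 were protein-coding, from Exoc4 (an exocyst subunit, 2923 ± 49.1 CPM over 725 kb) down to Snd1 (an RNA-binding nuclease, 1501 ± 18.1 CPM over 460.02 kb). The others in between were Cdk8 (the kinase of the Mediator complex), Arl15, the cytoskeletal linkers Dst and Macf1, Cmss1, Magi1, Smyd3, the histone acetyltransferase Kat6b, Fn1 (fibronectin), Gm47283, Wwox and Exoc6b. Among the 14, 11 spanned at least 100 kb, against 11.4% of all protein-coding genes, and of the 100 highest genes 92 were protein-coding, 72 of them of that length. Exceptions in length were Cdk8 at 71.6 kb, Fn1 at 67.7 kb and Gm47283 at 31.7 kb. Cdk8 and Cmss1 varied more between libraries than the 12 others, with SDs of 142 CPM on a mean of 2880 and 77.1 CPM on a mean of 2133.

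**Figure D1:**
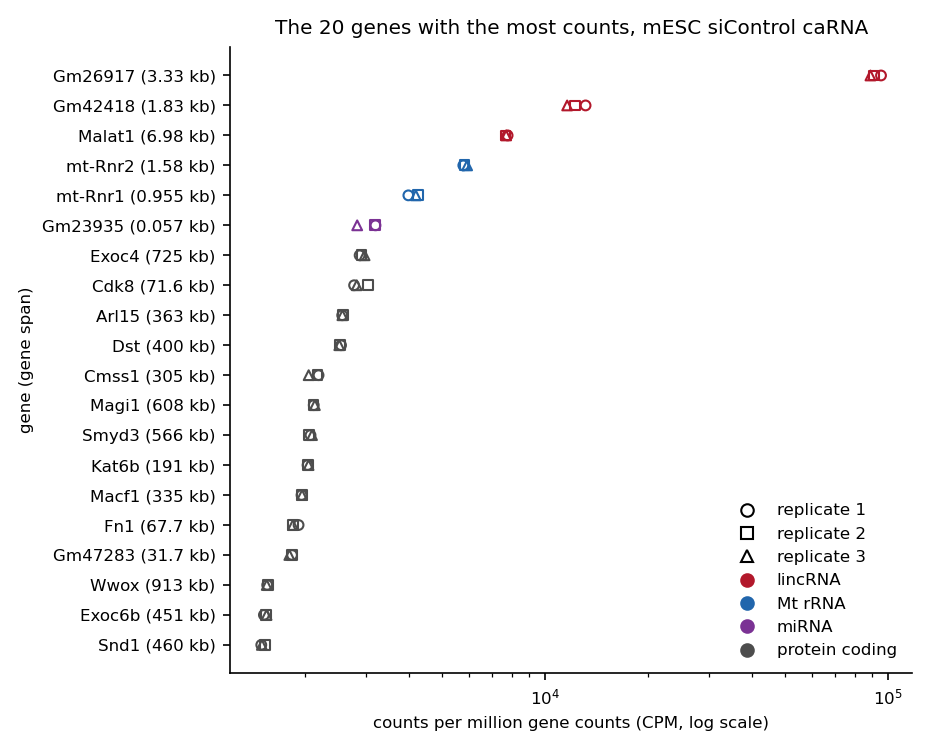
CPM (x axis, log scale) of the 20 highest genes (y axis, with each gene's span) in the 3 siControl caRNA libraries, one symbol per library and one colour per annotated class. Gm26917 stands apart at 91711 CPM on average, followed by Gm42418 at 12306 and Malat1 at 7711, while the 14 protein-coding genes lie between 1501 and 2923 CPM.

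By annotated class, protein-coding genes held 84.6% ± 0.399 of the gene counts and long non-coding RNA genes of all classes 13.5% ± 0.391. Most of the second share was the chromosome 17 pair: without Gm26917 and Gm42418, and over the same total, long non-coding RNA fell to 3.12% ± 0.0206. Only 7 single classes held at least 0.1% each. Mitochondrial ribosomal RNA took 0.999% ± 0.0191 in 2 genes, antisense RNA 0.539% ± 0.00449, processed transcripts 0.533% ± 0.00613, genes annotated as miRNA 0.325% ± 0.0239 and transcribed unprocessed pseudogenes 0.104% ± 0.00122. Nearly the whole miRNA share was the 28S-like Gm23935, and the other 2201 genes of that class together held 0.0174% ± 0.00288. Pseudogenes of all classes, 13048 gene models, had 0.364% ± 0.00359.

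To compare genes of unequal length, CPM was divided by the gene's span in kb, introns included, which is called density here. The floor was set by 1407 olfactory receptor genes, which belong to nasal neurons and served as genes taken to be silent: their summed counts gave 0.0278 ± 0.00154 CPM per kb, and 150 of them had no count. A similar floor, 0.0227 ± 0.000841 CPM per kb, came from 558 vomeronasal receptor genes. This floor is not free of signal, as 5 olfactory receptor genes lay at least 10 times above it. On the density scale 12046 of 54409 genes (22.1%) were at least 10 times above the olfactory floor, 2396 at least 100 times and 95 at least 1000 times. Among protein-coding genes the share was 44.7% (9801 of 21918), among long non-coding RNA genes 8.44% (817 of 9680) and among pseudogenes 6.02% (785 of 13048). The median protein-coding gene had a density of 0.156 ± 0.000864 CPM per kb, the 75th percentile lay at 1.21, the 90th at 2.69 and the 99th at 11.3.

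Among genes of at least 1 kb with no overlap on their strand, the highest densities were those of Gm26917 (27549 ± 999.7 CPM per kb), Gm42418 (6721 ± 419) and mt-Rnr2 (3692 ± 48.1), followed by the mitochondrial messenger RNAs mt-Co1, mt-Nd5 and mt-Cytb. The first nuclear protein-coding genes in this order were Hsp90ab1, a cytosolic chaperone, at 87.3 ± 2.53 CPM per kb and Gm10801 at 68.9 ± 3.75. Next came the splicing regulator Hnrnpa2b1 at 60.5 ± 0.466 and Gm47283, a model placed on the Y chromosome, at 57.3 ± 0.618. Gm10800, close to Gm10801 on chromosome 2 and too short for this list at 0.755 kb, had 635 ± 21.2. That was the highest density of all protein-coding genes, and which sequences gave the reads of either model was not tested. Npm1 (nucleophosmin, a nucleolar protein) had 47.2 ± 0.512, Rplp1 (a ribosomal stalk protein) 43.6 ± 1.79, the linker histone Hist1h1c 42.3 ± 2.21 and the chaperone Hsp90aa1 38.6 ± 0.927. The fifteenth place fell to Dppa5a, an RNA-binding protein of pluripotent cells, at 37.2 ± 1.53 CPM per kb. Genes in this list were short or mid-sized, and none but Gm47283 spanned more than 12.1 kb.

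The label was checked on genes of the pluripotency network, the transcription factors and RNA regulators that hold embryonic stem cells undifferentiated. Pou5f1 (Oct4), the central factor, had 2261, 1898 and 1949 counts, a density of 6.58 ± 0.466 CPM per kb and a level 238 ± 30.9 times the floor. Its value in replicate 1 was the highest of the 3, and on density it ranked 483 of 21918 protein-coding genes. Esrrb, an orphan nuclear receptor of the naive state, had 33889, 31223 and 32145 counts over 161 kb, 112 ± 8.12 times the floor. Malat1, the nuclear marker, had 519524, 482583 and 502299 counts over 6.98 kb and stood 39794 ± 2559.9 times above the floor. Each of these 3 markers was far above background in every library.

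Sox2, the partner of Oct4, had 0 counts in all 3 libraries. The gene, a single exon of 2.06 kb (chr3:34650405-34652461, plus strand), lies wholly within Sox2ot, a long non-coding RNA gene of 578 kb on the same strand, and a read that falls in both is assigned to neither. Sox2ot itself had 3606, 3734 and 3746 counts, 3.54 ± 0.0709 times the floor. The value of 0 is therefore no measurement of Sox2 RNA, and the marker could not be used. The same held for Sox1 inside Sox1ot, for Tubb3 and the ribosomal protein gene Rpl13 inside the read-through model Gm20388, for Rpl24 (98.7% covered by Gm28037) and for the imprinted Peg13 inside Trappc9, all at 0 in every library. Across the genome, 5444 genes sit in the intron of a same-strand neighbour, and 5424 of them (99.6%) were at 0, against 20.97% of 4210 genes whose only such neighbour is on the opposite strand.

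The pluripotency genes stood well above the floor. Of 10 core genes, 9 were at least 10 times above it, against 44.7% of all protein-coding genes, with a list median of 107 ± 6.65 times, and the tenth was Sox2. Tdgf1 (the Nodal co-receptor Cripto) led with 12961, 11653 and 12730 counts and 1052 ± 77.3 times the floor, followed by the homeobox factor Nanog with 7232, 6997 and 7030 counts and 549.5 ± 29.0 times. Both lay above Pou5f1 by far more than the spread between libraries. Dppa4 (112 ± 6.05), Sall4 (103 ± 6.93), Utf1 (68.5 ± 8.76), Dppa2 (57.1 ± 1.07) and the let-7 regulator Lin28a (43.3 ± 1.84) made up the lower part of the list, all as folds over the floor.

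Genes of the naive state, the ground state of the preimplantation embryo, were higher as a list. All 14 lay at least 10 times above the floor, against 44.7% of all protein-coding genes, with a median of 286 ± 19.1 times and a range from 32.4 (Dppa3) to 1338 (Dppa5a). Zfp42 (Rex1), with 16954, 15388 and 16511 counts, was at 757 ± 53.6 times, Klf2 at 596 ± 23.6, Tfcp2l1 at 412 ± 24.4, Klf4 at 406 ± 44.7 and Klf5 at 401 ± 28.3. These Krüppel-like and CP2-family factors belong to the circuit fed by leukaemia inhibitory factor and the kinase inhibitors of the medium. The order of Klf4 against Tfcp2l1 and against Klf5 was not resolved, since they differed by less than the spread between libraries.

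Genes that rise when cells leave the naive state were lower, and those of the 2-cell-like state were at the floor. Of 8 genes of primed pluripotency, 4 were at least 10 times above the floor, a share near the 44.7% of all protein-coding genes, among them Zic2 (81.8 ± 11.1), the DNA methyltransferase Dnmt3b (39.9 ± 3.53) and Foxd3 (19.3 ± 1.83). Otx2 (4.73 ± 1.31) and Fgf5 (1.03 ± 0.157), early genes of the exit from naive pluripotency, lay below that level. The 11 genes of the 2-cell-like state, a rare state resembling the early embryo, had a median of 1.24 ± 0.472 times the floor, and Zscan4c, Zscan4d and Zscan4f had between 0 and 14 counts per library. Copies of the Zscan4 family are nearly identical, and reads that fit several copies were set aside, so these values are uncertain.

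Markers of differentiated lineages gave medians close to the floor. Neuroectoderm genes stood at 0.788 ± 0.198 times, or at 1.58 ± 0.507 over the 6 genes left without the covered Sox1 and Tubb3, a choice made after seeing the data, mesoderm at 2.23 ± 0.695, endoderm at 1.31 ± 0.301, trophoblast at 3.53 ± 0.462, blood at 1.14 ± 0.226 and a list of 10 genes of adult tissues at 1.18 ± 0.174. Each list but the last held 8 genes. In these 6 lists only Nes (89.2 ± 6.79 times, an intermediate filament gene of neural progenitors), Eomes (24.1 ± 2.71) and Tfap2c (60.9 ± 6.51), a factor of trophoblast and germ cells, passed 10 times. The share was 44.7% among all protein-coding genes. At least 3 times above the floor were 2 neuroectoderm, 3 mesoderm, 3 endoderm, 4 trophoblast and 2 blood genes, where 56.2% of all protein-coding genes were. Krt18 (8.36 ± 3.65), Gsc (7.64 ± 3.33) and Hnf4a (7.09 ± 0.264) were among them. Some defining genes of each layer were low: Pax6 had 72 to 87 counts per library, T (Brachyury) 21 to 37, Sox17 7 to 14 and Cdx2 8 to 15. In a bulk sample, fewer cells of a type and less RNA per cell cannot be told apart.

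Feeder fibroblasts, on which the cells had been kept, were checked in the same way. The 10 fibroblast genes had a median of 1.26 ± 0.0481 times the floor, a range from 0.144 to 36.1, and their summed share of the gene counts was 0.00356% ± 0.000157. Col1a1 was the exception, with 1151, 1070 and 1065 counts and 36.1 ± 2.87 times the floor, and Col1a2 followed at 9.81 ± 0.544 times. The defining genes Lum (1 to 3 counts per library), Dcn (80 to 91 over 38.5 kb) and Prrx1 (124 to 156 over 68.6 kb) were at or near the floor. Of 8 germ cell genes, 4 were at least 10 times above the floor, again a share near the 44.7% of all protein-coding genes: Tex14 (73.2 ± 4.75, a gene that overlaps 11 others on its strand), Stra8 (22.6 ± 2.02), Ddx4 (14.6 ± 0.323) and Prdm1 (13.8 ± 0.324).

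**Figure D2:**
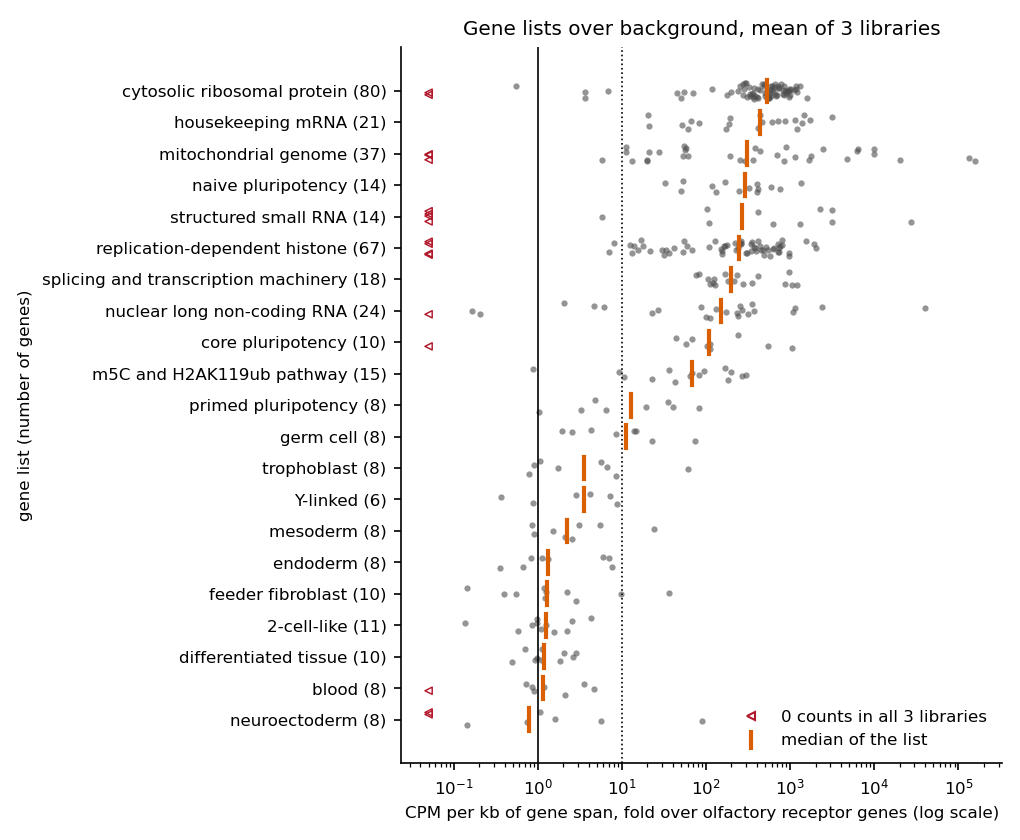
Density over the olfactory receptor floor (x axis, log scale; solid line at the floor, dotted line at 10 times) for every gene of 21 lists (y axis, number of genes in brackets), each point being 1 gene as the mean of 3 libraries, each bar the list median and open triangles at the left edge genes with 0 counts. Ribosomal protein, housekeeping and naive pluripotency genes lie mostly above 100 times the floor, while the lineage, blood and 2-cell-like lists gather around it.

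Housekeeping genes were high throughout. All 21 lay at least 10 times above the floor, where 44.7% of all protein-coding genes did, with a median of 439 ± 26.0 times, from B2m (20.2 ± 1.41), the light chain of MHC class I, to Hsp90ab1 (3148 ± 265), which had 32991, 30234 and 30395 counts. Actb, with 8215, 7339 and 7871 counts, stood at 1189 ± 95.3 times, next to the elongation factor gene Eef1a1 at 1155 ± 82.7, and above them lay Eef2 at 1455 ± 141 and Hspa8 at 1379 ± 75.8. Within each of these pairs the folds differed by less than their spread between libraries, which also holds the spread of the floor. On density, Eef2 (40.3 ± 1.66 CPM per kb) lay above Hspa8 (38.3 ± 0.396) in every library. Actb (33.0 ± 0.892) lay above Eef1a1 (32.0 ± 0.520) in replicates 1 and 3 but not in replicate 2. These orders hold per kb of span. Per kb of merged exon, Eef1a1 (137.5 ± 2.23 CPM) lay above Actb (44.8 ± 1.21), and Hspa8 (81.0 ± 0.839) above Eef2 (71.2 ± 2.92). Gapdh, the glycolytic enzyme, was lower at 443 ± 24.5, and the low-level general factor Tbp was at 66.7 ± 6.09.

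Genes for the translation machinery, short and densely covered, gave the highest median of the protein-coding lists named here per kb of span. Per kb of merged exon the housekeeping list lay above them, with a median of 32.7 CPM against 25.3. Of 80 cytosolic ribosomal protein genes, 74 were at least 10 times above the floor, against 44.7% of all protein-coding genes, with a median of 529 ± 35.8 times. Rplp1 led at 1574 ± 146, followed by Rpl4 (1312 ± 65.7) and Rps12 (1209 ± 112). Low values were those of Rpl13 and Rpl24 at 0, covered by other genes as described above. Rps10 (0.540 ± 0.410, with 11, 4 and 3 counts) and Rpl36al (3.59 ± 1.97, with 13, 9 and 4 counts) were also low. Each of them overlaps another gene on its strand, and the part of that overlap in the low values was not tested. The tissue-restricted copies Rpl3l (3.63 ± 0.873) and Rpl39l (6.77 ± 0.585) were low too. Ribosomal protein genes have many processed copies elsewhere in the genome, and their values are uncertain to that extent.

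Replication-dependent histone genes, intronless genes whose RNA is made in S phase and lacks a poly(A) tail, were also well covered by these randomly primed libraries. Of 67 genes, 61 lay at least 10 times above the floor, against 44.7% of all protein-coding genes, with a median of 247 ± 14.9 times. The linker histones Hist1h1a (2025 ± 205 times), Hist1h1b (1895 ± 136) and Hist1h1c (1527 ± 148) were the highest, Hist1h1a having 2916, 2557 and 2642 counts. The highest core histone gene was Hist1h2bn at 963 ± 125 times, and the linker genes Hist1h1e (449 ± 64.2), Hist1h1d (257 ± 24.9) and Hist1h1t (13.9 ± 4.34) were lower than that. Hist2h2aa1, Hist2h2bb, Hist2h3c1 and Hist3h2a had 0 counts, each covered by another gene on its strand.

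Genes for splicing and transcription were expressed throughout, 18 of 18 at least 10 times above the floor, against 44.7% of all protein-coding genes, with a median of 198 ± 11.5 times. The nuclear matrix protein gene Hnrnpu (1192 ± 66.8) and the splicing factor gene Srsf1 (1054 ± 47.6) led, ahead of Srsf2 (971 ± 40.03) and the paraspeckle gene Sfpq (860.0 ± 53.7). Polr2a, the largest subunit of RNA polymerase II, had 12566, 11866 and 12414 counts and 276 ± 14.7 times, and the pause-release kinase Cdk9 was the lowest at 76.5 ± 8.45. Nono, a second paraspeckle protein, was at 183 ± 16.5 times.

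For the pathway that the study is about, RNA m5C and the ubiquitin mark on histone H2A, 13 of 15 genes were at least 10 times above the floor, against 44.7% of all protein-coding genes, with a median of 67.7 ± 3.06 times. Nsun2, the methyltransferase, had 8325, 7474 and 7913 counts over 102 kb, a density of 1.19 ± 0.0290 CPM per kb and 42.9 ± 3.44 times the floor. The other m5C methyltransferase of the list, Trdmt1, was lower at 10.5 ± 0.386 times, a gap larger than the spread between libraries. The dioxygenase genes differed among themselves: Tet1, with 57067, 54545 and 56076 counts, stood at 297 ± 15.2 times, Tet2, with 27534, 26209 and 26607, at 182 ± 10.6 and Tet3, with 1673, 1623 and 1567, at 9.29 ± 0.648. The 3 did not overlap in any library. Pspc1, a paraspeckle RNA-binding protein that recruits TET2, stood at 270 ± 11.6 times, above Tet2 and below Tet1. Per kb of merged exon, Pspc1 (75.3 ± 1.12 CPM) lay above Tet1 (55.6 ± 0.391), so the order of these genes depends on the length used.

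Of the DNA-binding partners of TET2, Cxxc5 was at 64.6 ± 3.52 times the floor, whereas Cxxc4, with 38 to 43 counts per library, was at the floor (0.862 ± 0.0383). The m5C reader gene Mbd6, with 1296, 1138 and 1206 counts, stood at 95.2 ± 8.88 times and its relative Mbd5 at 36.03 ± 0.572. Per kb of merged exon the order was the other way, at 4.19 ± 0.152 CPM for Mbd6 and 19.2 ± 0.895 for Mbd5. Mbd6 spans 7.06 kb and Mbd5 376 kb, so their order depends on the length used. The deubiquitinase Bap1, which removes the ubiquitin mark, was at 81.5 ± 3.90, and its cofactors Asxl1 and Asxl2 were at 170 ± 9.58 and 197 ± 8.36. Of the ligases that set the mark, Rnf2 was at 67.7 ± 3.06 and Ring1 at 22.7 ± 2.41. Of the 15 genes, only Cxxc4, at the floor, and Tet3, at 9.29 times, were below 10 times.

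Nuclear long non-coding RNAs were spread over a wide range, from 0 to 39794 times the floor, with 18 of 24 at least 10 times above it, against 8.44% of all long non-coding RNA genes, and a median of 150.2 ± 7.56. After Malat1 the densest were Gas5 (66.3 ± 1.81 CPM per kb) and Snhg1 (31.8 ± 0.962), hosts of small nucleolar RNAs in their introns, and Neat1 (29.8 ± 0.296, with 41845, 38756 and 40171 counts). Malat1, at 1104 ± 8.19 CPM per kb, was over them by a wide margin. Per kb of merged exon, Lncenc1 (184 ± 4.21 CPM) and Pvt1 (118 ± 0.467) lay above Gas5 (72.6 ± 1.98). The order after Malat1 thus depends on the length used. Lncenc1, a non-coding RNA of naive embryonic stem cells, had 39757, 39207 and 39503 counts and 353 ± 14.4 times the floor, and Mir17hg, the host of the miR-17 cluster, 367 ± 25.1.

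Imprinted non-coding RNAs, which are made from 1 parental allele, were mostly high. Kcnq1ot1, with 45466, 43392 and 45238 counts over 93.1 kb, was at 266 ± 12.7 times the floor, Nespas at 319 ± 28.4, and the neighbours Meg3, Rian and Mirg on chromosome 12 at 233 ± 17.9, 238 ± 12.3 and 100.3 ± 3.58. Airn, which overlaps 2 others on its strand, was low, at 4.70 ± 0.554, and Peg13 is covered by Trappc9. Among RNAs of the X inactivation centre, Xist, which coats the inactive X, had 293, 216 and 251 counts and 6.14 ± 1.10 times the floor. Its antisense partner Tsix, with 2292, 2113 and 2229 counts, was at 22.9 ± 1.497, Ftx at 26.8 ± 1.79 and Jpx, with 20 to 38 counts, at 0.206 ± 0.0836. Jpx overlaps 4 others on its strand, Ftx 3, and Xist and Tsix 2 each. Reads that fall in more than 1 gene are assigned to none, and the part of this in the low value of Jpx was not tested. Tsix and Xist lie on opposite strands of the same bases, and the X-linked Firre, a repeat-rich nuclear RNA, stood higher than all of them at 170.2 ± 10.2.

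Ranked by CPM within each annotated class, the leading members were mostly long. Pvt1 (827 ± 3.27 CPM over 340.1 kb) was the highest long intergenic RNA after Malat1. Kcnq1ot1 (687 ± 6.61 CPM) and 4732471J01Rik (160.1 ± 4.43) led the antisense class, followed by Nespas, Gm10069 and 1600020E01Rik at 124 to 125 CPM. Rian (381 ± 7.23), Firre (376 ± 2.47), Dleu2 (288 ± 9.88), Gas5 (273 ± 7.43) and Trerf1 (181 ± 3.80) led the processed transcripts. Among transcribed unprocessed pseudogenes Gm10033 was first, with 147 ± 5.76 CPM over 29.03 kb, ahead of Ppp4r1l-ps (99.6 ± 2.30), Gm49329 (91.8 ± 1.77), 2610005L07Rik (77.3 ± 2.30) and Gm11427 (75.9 ± 3.62). Per kb of span, Pvt1 was at 2.43 and Trerf1 at 0.820, far below the shorter Gas5.

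Small structured RNAs were counted as well, 9 of 14 listed genes at least 10 times above the floor, against 22.1% of all genes. Rn7sk (7SK), the RNA that holds the pause-release kinase inactive, had 17876, 15171 and 15686 counts over 331 bases, a density of 754 ± 46.8 CPM per kb. Terc, the telomerase RNA, had 2003, 1507 and 1592 counts and 61.7 ± 7.95 CPM per kb, and Snord118 (U8), which acts in 28S processing, had 956, 681 and 616 counts and 85.3 ± 18.6. All 3 were highest in replicate 1. The list median was 266 ± 117 times the floor with 4 covered genes at 0 in it, and 977 ± 221 times over the other 10, again a choice made after seeing the data. Snord13 (320, 218 and 202 counts), Rny1 (37, 11 and 13) and Rny3 (108, 51 and 66) were highest in the same library. Snora73a and Snora73b, inside Rcc1 and Snhg3, and both models of Rmrp, which cover each other, had 0 counts.

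The hairpins of the miR-290 cluster, the main miRNA locus of mES cells, were read one by one. Their primary transcript is made by RNA polymerase II and cut on chromatin by Drosha. The seed of a mature miRNA is the stretch of bases by which it finds its targets. In the order of the cluster on the plus strand of chromosome 7, Mir290a had 531, 475 and 440 counts, Mir291a 664, 568 and 568, Mir292 553, 602 and 558, Mir291b 679, 603 and 622, Mir293 270, 323 and 319, Mir294 327, 267 and 368 and Mir295 227, 174 and 250. The first 4 hairpins were thus higher than the last 3 in every library, at 7.41 ± 0.612 to 9.76 ± 0.351 CPM against 3.33 ± 0.538 to 4.92 ± 0.701 CPM, and their lengths were alike (69 to 84 bases). By contrast, Mir302a, Mir302b, Mir302c and Mir367, from the cluster of primed cells on chromosome 3, had between 0 and 6 counts per library. Mir302b and Mir302c nonetheless lay 20.3 ± 23.9 and 11.3 ± 19.5 times above the floor because the genes are so short. When both are included, 9 of 13 listed miRNA genes passed 10 times, against 22.1% of all genes. Among the 2202 genes annotated as miRNA the share was 7.95%, and 17.2% among those without overlap on their strand. The median of the 13 was 151 ± 53.8 times the floor with 1 covered gene at 0 in it, and 945 ± 153 over the other 12. The 7 hairpins are given 5′ to 3′ from GENCODE M21 on GRCm38, with capitals marking AAGTGC. These letters spell in DNA the bases 2 to 7 (AAGUGC) of human miR-302a-3p and miR-372-3p in RefSeq. All 7 hairpins hold them, against 101 of 2199 mouse hairpin models (4.59%). No mature mouse sequence was used, so the capitals do not show where a mature form or its seed begins.
Mir290a (chr7:3218626-3218708): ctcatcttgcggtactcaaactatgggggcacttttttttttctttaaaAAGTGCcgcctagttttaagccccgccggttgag
Mir291a (chr7:3218919-3219000): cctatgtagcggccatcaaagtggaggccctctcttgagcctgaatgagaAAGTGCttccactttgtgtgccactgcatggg
Mir292 (chr7:3219189-3219270): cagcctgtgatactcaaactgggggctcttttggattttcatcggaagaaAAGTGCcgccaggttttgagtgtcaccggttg
Mir291b (chr7:3219482-3219560): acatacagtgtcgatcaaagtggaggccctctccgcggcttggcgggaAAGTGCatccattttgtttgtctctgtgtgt
Mir293 (chr7:3220343-3220422): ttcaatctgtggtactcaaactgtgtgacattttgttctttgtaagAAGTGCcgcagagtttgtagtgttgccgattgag
Mir294 (chr7:3220641-3220724): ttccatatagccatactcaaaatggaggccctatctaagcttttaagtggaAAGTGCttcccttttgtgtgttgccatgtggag
Mir295 (chr7:3220773-3220841): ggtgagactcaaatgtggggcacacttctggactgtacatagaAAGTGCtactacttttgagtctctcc

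Counts were spread unevenly over gene length. Protein-coding genes of 30 to 100 kb were 23.6% of the genes and held 40.4% ± 0.0360 of the protein-coding counts, and those of 100 to 300 kb were 8.78% of the genes with 28.1% ± 0.0756. At the other end, genes of up to 3 kb were 10.9% of the genes and held 0.736% ± 0.00459. With those over 300 kb added, the 2491 genes of at least 100 kb held 39.1% ± 0.124. The median CPM of genes at least 10 times above the floor rose in step with length, from 2.38 ± 0.170 in the shortest class to 359 ± 1.41 in the longest.

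Divided by span, most of that difference was gone. The median density of genes at least 10 times above the floor was 1.40 ± 0.0507 CPM per kb up to 3 kb, 1.33 ± 0.0159 from 3 to 10 kb, 1.41 ± 0.0145 from 10 to 30 kb, 1.51 ± 0.00432 from 30 to 100 kb, 1.16 ± 0.00744 from 100 to 300 kb and 0.801 ± 0.0226 beyond. Divided by merged exon length instead, the medians climbed from 1.90 ± 0.0675 to 36.1 ± 0.362 CPM per kb of exon over the same classes. Genes with a single merged exon and genes with several had like medians per kb of span (1.35 ± 0.0332 for 279 genes and 1.38 ± 0.00570 for 9522), yet 1.35 and 7.88 ± 0.0146 per kb of exon. The choice of genes uses the span density itself, and its part in the flatness of the first series was not tested.

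A least-squares fit of log2 counts on log2 span and log2 merged exon length across 17120 protein-coding genes with at least 10 counts in every library gave slopes of 0.439 ± 0.00957 for span and 0.946 ± 0.00857 for exon length. These slopes depended on which genes were kept: among 9787 genes at least 10 times above the floor they were 0.813 ± 0.00517 and 0.297 ± 0.000986, and with every gene that had a count the span slope was 0.829. Each is a description across genes, which are not independent replicates.

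**Figure D3:**
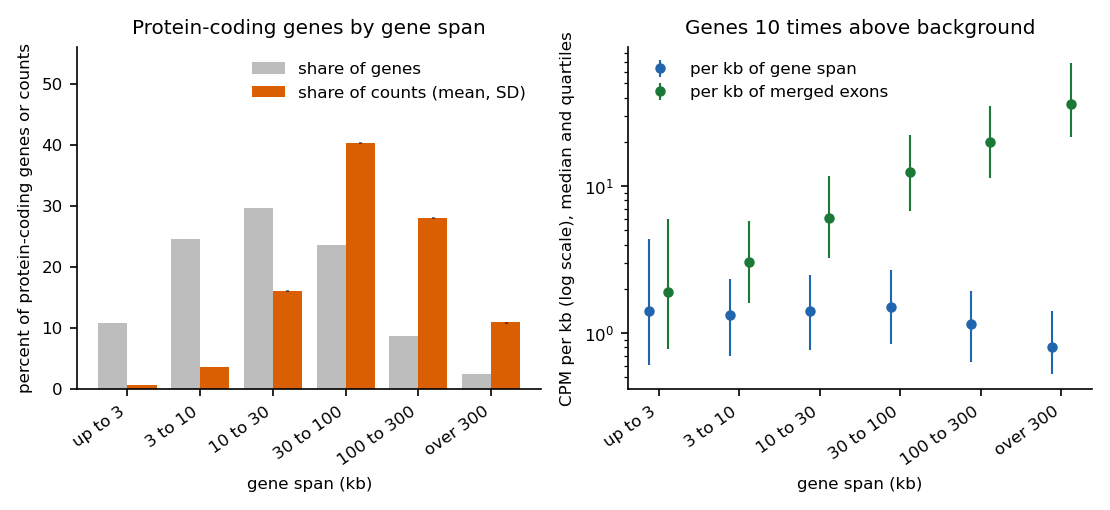
Left, percent of protein-coding genes and of protein-coding counts (y axis; bars for counts are the mean of 3 libraries with the SD) by gene span in kb (x axis). Right, median and quartiles over genes at least 10 times above the floor of CPM per kb of span and of CPM per kb of merged exons (y axis, log scale): the span medians stay between 0.801 and 1.51, while the exon medians climb from 1.90 to 36.1.

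Among genes of at least 100 kb, the densest was Kat6b, with 135654, 128465 and 133305 counts and 10.7 ± 0.0358 CPM per kb. The kinase Wnk1 (9.02 ± 0.115) and the dioxygenase Tet1 (8.23 ± 0.0578) were also among the 10 densest. Ankrd11 (8.04 ± 0.0601) and Trip12 (7.999 ± 0.184) came after Tet1, then the fatty acid elongase Elovl6 (7.22 ± 0.0623) and the RNA-binding proteins Rbpms (7.20 ± 0.0567) and Qk (7.20 ± 0.185). The last 3 could not be ranked, as they differed by less than their SDs. The longest of the abundant genes were not the densest: Wwox, over 913 kb, had 1549 ± 6.46 CPM and 1.70 ± 0.00707 CPM per kb.

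The mitochondrial genome held 1.20% ± 0.0232 of the gene counts, and 33 of its 37 genes were at least 10 times above the floor, against 22.1% of all genes. Its transcripts are made in the mitochondrial matrix, and how these counts came into the pellet was not tested. Most of the share was ribosomal, mt-Rnr1 with 266881, 267642 and 273893 counts (4342 ± 142 CPM per kb) and mt-Rnr2 with 385956, 366692 and 386528 (3692 ± 48.1). Messenger RNAs fell into separate ranges. Those of complex I subunits mt-Nd1, mt-Nd5 and mt-Nd6, of the oxidase subunit mt-Co1 and of cytochrome b (mt-Cytb) had 174 to 569 CPM per kb, and mt-Nd2 and mt-Nd4 had 67.4 ± 2.35 and 46.3 ± 2.08.

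Messages of the middle of the genome were far lower, although mitochondrial transcripts are cut from long common precursors. There mt-Co2 had 56, 73 and 87 counts (1.62 ± 0.367 CPM per kb), mt-Co3 27, 28 and 35 (0.589 ± 0.0865), mt-Atp6 16, 15 and 10 (0.309 ± 0.0725), mt-Nd4l 10, 11 and 11 (0.553 ± 0.0439) and mt-Nd3 0, 4 and 7 (0.164 ± 0.155). Each of these 5 had a pseudogene on chromosome 1 whose transcript matched it at 99.7% to 100% identity over at least 98.99% of its length: Gm28661, Gm28437, Gm10925, Gm10222 and Gm28438 in the same order. Reads that aligned to several places were set aside in these tables, and the part of that step in the low values was not tested. Between them mt-Atp8, with 8, 9 and 5 counts (0.554 ± 0.165), was as low but had no match among the annotated transcripts. Of the higher genes, mt-Nd4 matched Gm28439 at 100% over 63.6% of its length and mt-Co1 matched a copy at 97.6%.

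**Figure D4:**
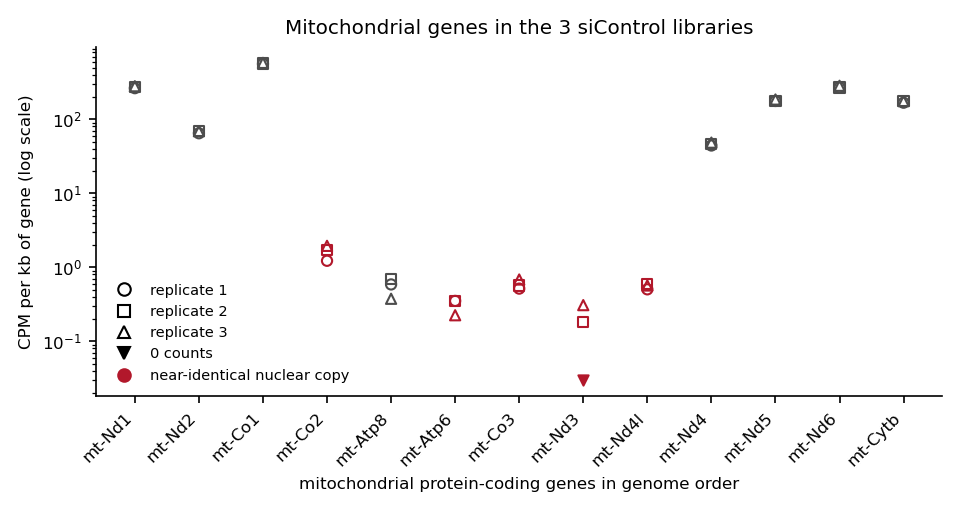
CPM per kb (y axis, log scale) of the 13 mitochondrial protein-coding genes in genome order (x axis) in each of the 3 siControl libraries; red marks genes with a nuclear pseudogene of 99.7% identity or more over nearly their whole length. The red genes and mt-Atp8 lie at or below 1.95 CPM per kb in every library, and the others at or above 44.2.

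By chromosome, the median density of protein-coding genes at least 10 times above the floor was 1.40 ± 0.00572 CPM per kb over the autosomes (9497 genes), from 1.22 ± 0.00411 on chromosome 7 to 1.81 ± 0.0306 on chromosome 6. On the X chromosome it was 1.06 ± 0.0186 over 291 genes, below each autosome in all 3 libraries, at a ratio to the autosomes of 0.765, 0.745 and 0.768. Fewer X-linked genes were above the floor in the first place, 30.7% of 948 against 45.7% of 20774 autosomal genes. The ratio covers these 291 genes only, and X-linked genes closer to the floor are not in it. Among the 183 protein-coding genes annotated on the Y chromosome, only Gm47283 (chrY:90784738-90816464) passed 10 times. Whether its reads arise from the Y alone was not tested. The 6 single-copy Y genes listed had a median of 3.51 ± 0.336 times the floor, led by Uty at 8.59 ± 0.544 and Ddx3y at 7.17 ± 0.739. Chromosome 17 held 13.9% ± 0.412 of all gene counts, most of it in Gm26917 and Gm42418.

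**Figure D5:**
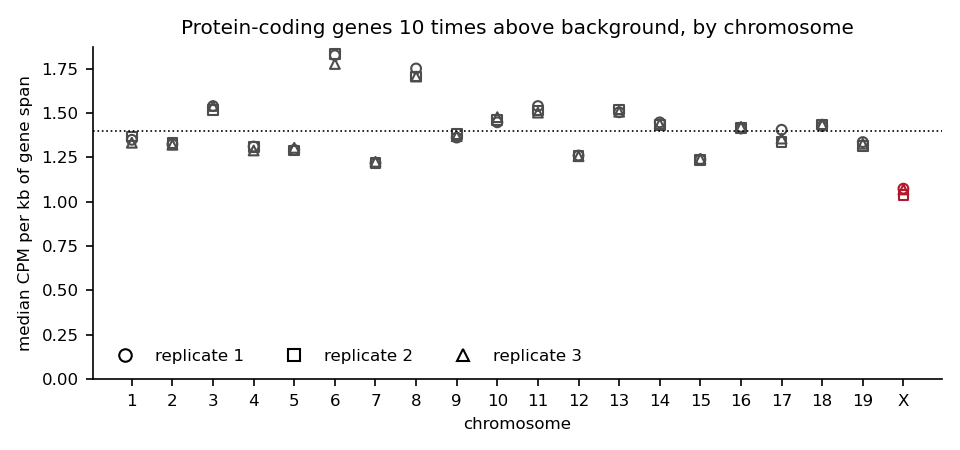
Median CPM per kb of gene span (y axis, from 0) over protein-coding genes at least 10 times above the floor on each autosome and the X (x axis), one symbol per library, with a dotted line at the autosomal median of 1.40. The X, in red, lies at 1.04 to 1.07 in the 3 libraries and the autosomes at 1.22 or more.

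The genes that varied most between libraries were short or thinly counted. Among 12855 genes with a mean of at least 200 counts, whose median CV was 4.17%, the highest were the processed pseudogene Gm49381 (CV 47.6%, with 152, 162 and 337 counts), the small nuclear RNA gene Gm23804 (40.7%, with 503, 202 and 340) and the processed transcript Gm10125 (38.7%, with 307, 150 and 167). Mir6236, the 28S-side model described above, had 6214, 5941 and 3194 counts (32.8%), low in replicate 3, and Gstm1, a glutathione transferase gene, had 307, 159 and 191 (32.8%), high in replicate 1. No single library was the outlying one for all 5.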

How the data were processed

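Counts of the 3 siControl caRNA libraries were used as deposited. Per the submitters' processing notes and the study's methods, reads were trimmed with Trimmomatic 0.39, aligned to mm10 with HISAT2 2.2.1 and counted by the authors per GENCODE M19 gene with HTSeq 0.12.4; the methods also name featureCounts for caRNA, and the feature type and strand option are not given in the sources used here. The values of nested genes are those of counting over whole gene spans by strand. An RNA spike-in was added per the methods, but the tables used here hold 0 spike-in lines, so levels are shares of a library. Lines for reads in no gene, in several genes or at several places (19.9%, 2.46% and 4.79% of records) were left out, as were 37 gene identifiers without a match. The rest (99.932%) took symbols, classes and spans from GENCODE M21 (GRCm38), 97.8% at the same version. Long non-coding RNA pools lincRNA, antisense, processed transcript, sense and promoter-associated classes.

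CPM, CPM per kb of span and of merged exons, and folds over the olfactory receptor floor were computed in Python 3.11.15, the biological coefficient of variation in edgeR 4.0.16 (R 4.3.3), and alignments with blastn 2.17.0. Steps were tested on simulated data. Total depth was 62989044 to 66832780 counts per library, and counting error is the smallest error any value can have. Named genes were the 20 highest by CPM and the 15 densest of at least 1 kb without overlap. Further named were the 5 highest of each class with at least 0.1% of counts, and list members. Also named were the 10 densest of at least 100 kb, the 5 with the highest CV and the 5 highest hairpins. Sox2ot and other covering genes, CT010467.1, AY036118, Mir292, Gm10800 and the pseudogene copies of mitochondrial genes were named after their values were seen. The lists and the choice of libraries were made with earlier results of these data known. Alternatives were another denominator, floor, threshold, length, filter, TMM or DESeq2 1.42.0 scaling, and leaving out each library. No columns of other samples were present in these tables. Some genes that the naming rule covers are not reported here.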

Additional observations from a re-analysis of the deposited data

Results flagged for a closer look

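Reads outside every annotated gene were a sizeable signal that the report did not otherwise use. They made up 19.6% of the read records in replicate 1, 20.2% in replicate 2 and 20.04% in replicate 3. The tables hold only their total, so where in the genome they lie is not analysed here.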

How the results depend on the processing

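No paired analysis was possible because the 3 libraries form 1 group and no test was run. Of 30 values under another setting, 6 stayed within the replicate spread (or within 1.5 times for counts of genes), 24 moved and 0 reversed. With all read records as the total, the 10 highest genes held 9.88%, protein-coding genes 61.6% and long non-coding RNA 9.85%, and the median density was 0.113 CPM per kb. Without mitochondrial genes the 10 highest genes held 13.2%, protein-coding genes 85.4% and the median density was 0.157, and without Gm26917 the 4 values above were 5.08%, 93.2%, 4.79% and 0.171. Leaving out genes that overlap on their strand gave 80.04% protein-coding, 17.4% long non-coding, a median density of 0.221 and a span slope of 0.469. The median density was 0.484 over genes with at least 10 counts and 1.15 per kb of exon. The span slope was 0.829 with every gene that had a count (0.5 added) and 0.813 among genes 10 times above the floor, the last chosen after seeing the data. Thresholds of 3 and 30 times gave 18517 and 7828 genes, and the pluripotency median was 181 times over the vomeronasal floor, 339.9 times per kb of exon and, a choice made after seeing the data, 166 times without the covered Sox2. Leaving out each library in turn, the slope ran from 0.465 to 0.481, above the 0.439 with all 3, with other genes passing the filter. The other ranges were 13.4% to 13.8% for the 10 highest genes, 84.4% to 84.8% protein-coding, 13.3% to 13.7% long non-coding, 11973 to 12219 genes above the floor, 0.155 to 0.156 CPM per kb, 146 to 151 times for pluripotency and 6.08% to 7.23% for the biological coefficient of variation, the last added after seeing the data. Scaling by TMM or DESeq2 left the median density at 0.156. Levels of genes under 100 counts and of genes under another on their strand are limited by depth and by overlap.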
